A study of Sus scrofa with 12 samples.

Results

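The genes of the complement and coagulation systems were examined in livers of 2 pig breeds kept at room temperature or in the cold. The set was every row of the deposited gene table whose symbol was on a list of 44 complement components, clotting factors, anticoagulants, fibrinolysis proteins and their inhibitors. Such a row was found for 39 of the 44 among 21169 gene rows. Of these, 38 were tested, since C2, a protease of the classical pathway, had no count in any library. No row carried the symbol CFB, CFI, C8G, F13B or PROZ. Rows that the file leaves without a symbol were identified as CFB and CFI through a table of Ensembl names, and they are given apart from the 38.

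Complement and coagulation are cascades of plasma proteases in which each enzyme activates the next, and hepatocytes make most of their proteins. In complement, recognition proteins and their proteases lead to the cleavage of C3, and the terminal components then build a pore in the target membrane. In coagulation, tissue factor with factor VII, or the contact factors with factor XII, lead to thrombin and fibrin, while protein C, protein S and antithrombin restrain the process and plasmin dissolves the clot. Prothrombin, factors VII, IX and X and proteins C and S must be carboxylated in a vitamin K-dependent step before they can bind membranes.

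The 4 groups combined breed, Bama or Hezuo, with housing at room temperature (23 ± 2 °C) or under cold stress (-15 ± 2 °C), and held 3 pigs each, all sampled on day 15. Pigs housed at room temperature are called the controls of their breed, as the study did. It asked which genes and non-coding RNAs relate to how Hezuo pigs, called cooperative pigs in its design text, withstand cold. Total RNA of whole liver was depleted of ribosomal RNA and sequenced in strand-specific libraries. The labels give neither the sex nor the age of the pigs.

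The 12 libraries held between 20041270 and 30188033 gene counts. All 10 hepatocyte markers were detected, and ALB, the albumin gene, took 8.24% to 8.67% of the counts in Bama controls, 1.53% to 7.12% in cold Bama pigs, 9.42% to 12.01% in Hezuo controls and 3.05% to 9.78% in cold Hezuo pigs. Y-linked DDX3Y had at most 3 counts in each Bama control and in Bama cold replicate 2, and 1331 to 3769 counts in the other 8 libraries. Temperature and Y-linked RNA therefore overlap in part in the Bama pigs, and values that bear on this stand beside the Bama results. Levels below are counts per 1000000 (CPM) scaled by edgeR's TMM factors. A gene was called where the Benjamini-Hochberg adjusted p of edgeR's quasi-likelihood test, taken over all 13532 genes tested, was below 0.05.

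The members took a large share of the liver RNA in every pig. Together they held 9.35% ± 0.575 (SD, n = 3) of the counts of Bama controls, 7.99% ± 0.544 of those of cold Bama pigs, 8.48% ± 1.17 of those of Hezuo controls and 7.38% ± 1.03 of those of cold Hezuo pigs. C3, the central component on which all complement pathways converge, alone took 2.43% to 4.18% of each library. Its level was 39710, 42358 and 33339 CPM in Bama controls and 29715, 30340 and 27819 in the cold, against 45554, 41277 and 27592 and then 31171, 37965 and 26800 CPM in Hezuo pigs. The 2 temperatures did not overlap in Bama pigs and overlapped in Hezuo pigs, and C3 was called in neither breed.

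Levels of different genes were compared by the deposited FPKM, which corrects for gene length. On that scale C3 came first with a mean of 6260 over the 12 pigs, followed by the attachment protein VTN (3533), the chaperone CLU (2121), antithrombin (SERPINC1, 2071), plasminogen (PLG, 1321) and C1R (1171). Prothrombin (F2) stood at 733, protein C (PROC) at 580 and factor IX (F9) at 349 FPKM. Several proteases of coagulation and of the lectin pathway were lower than these, with 140 for factor XII (F12), 59.7 for factor XI (F11), 22.6 for factor VII (F7) and 25.5 for the lectin-pathway protease MASP1. Factor VIII (F8), which liver endothelium makes, had 14.2 FPKM. Tissue factor (F3), the membrane receptor of factor VII, was the least abundant detected member, at a mean of 1 FPKM.

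**Figure D1:**
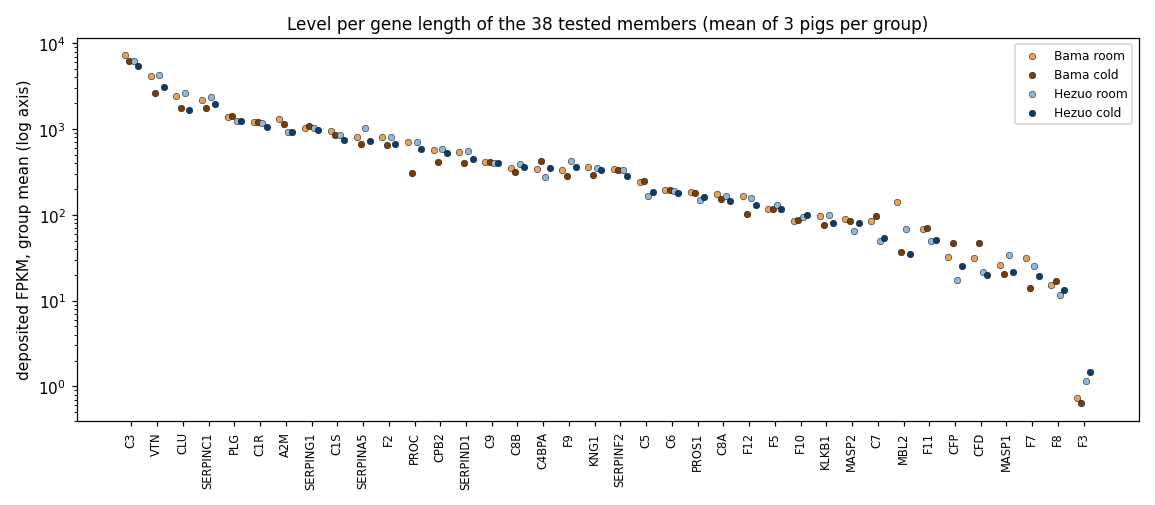
Mean deposited FPKM of each of the 38 tested members in the 4 groups (3 pigs each), on a log axis, ordered by the mean over 12 pigs. Members range from C3 (mean 6260) to F3 (mean 1), and the Bama cold points of PROC, F7 and F12 lie below those of the other groups.

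The spread between pigs of the same group differed widely among members. MBL2, the mannose-binding lectin that recognises microbial sugars, ran from 14.6 to 309 CPM over the 12 pigs, with a within-group SD of 1.297 on the log2 scale. Its values were 153, 309 and 153 CPM in Bama controls and 78.8, 14.6 and 53.5 in the cold, then 156, 31.5 and 229 in Hezuo controls and 15.3, 138 and 32.7 in the cold. The Bama groups did not overlap and the Hezuo groups did, and the log2 fold changes of -2.07 ± 0.91 (SE; adjusted p = 0.305) and -1.16 ± 0.89 (adjusted p = 0.552) did not pass. SERPINA5, the protein C inhibitor, came next with a within-group SD of 0.51. Factor X (F10), prothrombin, CPB2, antithrombin and protein C were the steadiest, with SDs of 0.11 to 0.12.

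In Bama pigs, 3 of the 38 members fell in the cold and 0 rose, where 0.539% of all genes tested were called lower, 0.384% higher and 0.924% were called in either direction. They were protein C, factor VII and factor XII, an anticoagulant protease and the starting proteases of the extrinsic and intrinsic paths. PROC had 1137, 1226 and 1200 CPM in controls and 408, 519 and 472 in the cold, so that the highest cold pig stood far below the lowest control. Its log2 fold change was -1.35 ± 0.15 (adjusted p = 0.00242), a level 2.55-fold lower. F7 had 58.6, 54.2 and 66.4 CPM in controls and 23.6, 27.3 and 22.5 in the cold, again without overlap, a log2 fold change of -1.29 ± 0.16 (adjusted p = 0.00614). F12 had 368, 342 and 319 CPM in controls against 165, 196 and 224 in the cold, and fell by 0.82 ± 0.15 on the log2 scale (adjusted p = 0.0359).

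PROC and F7 passed with each of the 12 libraries left out in turn, while F12 passed in 2 of those 12 fits. Fitted on the 6 Bama libraries alone, F7 passed (adjusted p = 0.0287), and PROC (adjusted p = 0.0577) and F12 (adjusted p = 0.126) did not. With Y-linked RNA as a covariate the same log2 fold changes were -1.19 ± 0.22 for PROC (adjusted p = 0.305), -1.13 ± 0.24 for F7 (adjusted p = 0.379) and -0.81 ± 0.24 for F12 (adjusted p = 0.742), and none passed. Bama cold replicate 2, which lacked Y-linked RNA like the controls, had 519 CPM of PROC, 27.3 of F7 and 196 of F12, each below every control pig. In bulk tissue, fewer cells of a type and less RNA per cell cannot be told apart. Of the 10 hepatocyte markers 7 were negative, 2 of them called lower, and 3 were positive (median log2 fold change -0.34, from -1.39 to 1.28). Their summed CPM was 117944 to 132434 in controls and 35684 to 98048 in the cold. That of the 9 macrophage markers was 2354 to 3209 and then 3212 to 5386, with 0 called, and that of the 9 stellate and mesenchymal markers 2065 to 4219 and then 669 to 1181, with 2 called lower. Neutrophil markers summed to 15.97 to 25.6 CPM and then 30.9 to 52.3, with 5 of 5 positive (median 0.94), and the 3 erythroid markers were negative (median -0.91), with 0 called in either list. No marker of these lists was at 0, and their part in the result was not tested.

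**Figure D2:**
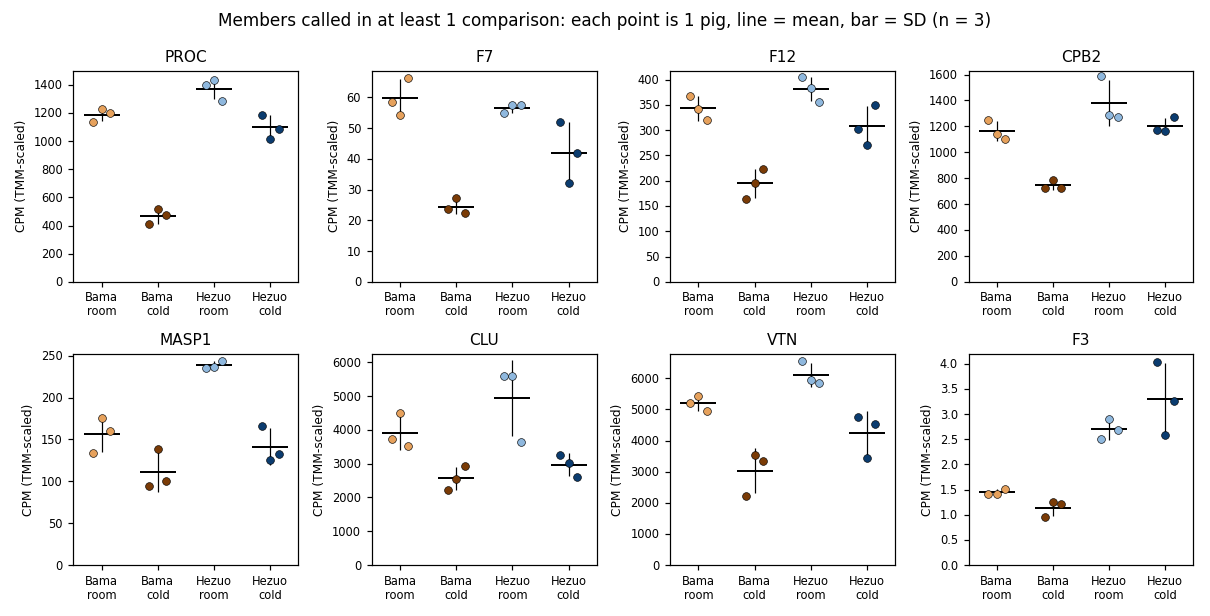
TMM-scaled CPM of the 8 members called in at least 1 comparison, with 1 point per pig, the group mean as a line and the SD as a bar (n = 3). The 3 Bama cold pigs are the lowest for PROC (408 to 519) and F7 (22.5 to 27.3), and F3 is higher in all 6 Hezuo pigs (2.50 to 4.04) than in any Bama pig.

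Most other members leaned the same way in Bama pigs without passing. Of the 38, 33 had negative log2 fold changes, against 51.4% of all genes, with a median of -0.32 against -0.01. DESeq2 called 8, all lower (CLU, VTN, F7, F2, F12, PROC, SERPINC1 and CPB2), where it called 5.06% of all genes. By edgeR, 14 had an unadjusted p below 0.05, all of them lower, where 8.01% of all genes did so in that direction. In 15 members the 2 temperatures did not overlap and cold was lower, against 10.2% of all genes. CPB2, a carboxypeptidase that protects fibrin from lysis, had 1250, 1139 and 1099 CPM in controls and 726, 787 and 723 in the cold (log2 fold change -0.64 ± 0.14, adjusted p = 0.0668). VTN, which keeps the terminal complex from inserting into membranes, had 5192, 5425 and 4960 and then 2216, 3542 and 3345 CPM (-0.78 ± 0.21, adjusted p = 0.104).

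Positive values in Bama pigs were found for 5 members, CFD, CFP, C4BPA, C7 (0.08) and F8 (0.0094), and none was called. CFD, the protease that cleaves factor B, had 55.0, 30.6 and 28.5 CPM in controls and 54.7, 45.3 and 54.5 in the cold, with 1 control as high as the cold pigs (0.44, adjusted p = 0.38). Properdin (CFP), which stabilises the alternative convertase and is made largely by leukocytes, had 129, 72.6 and 110 and then 204, 113 and 89.0 CPM, overlapping (0.38, adjusted p = 0.589). C4BPA, which restrains the classical convertase, had 708, 697 and 540 CPM and then 779, 729 and 686 (0.17, adjusted p = 0.754). RefSeq lists 2 neighbouring entries under the symbol C4BPA, so its reads may be split between copies.

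In Hezuo pigs, 0 of the 38 members were called in the cold by edgeR, where 0.281% of all genes were called in either direction, 0.0813% lower and 0.2% higher. An unadjusted p below 0.05 was found for 5 members, all lower, against 7.25% of all genes in that direction, and DESeq2 called 2, CLU and MASP1, both lower, against 3.99% of all genes. The median log2 fold change was -0.20 against -0.01 for all genes, and 28 of 38 values were negative, against 51.6% of all genes. The temperatures did not overlap in 13 members that were lower and 1 that was higher in the cold, against 10.9% and 10.8% of all genes.

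The members with the smallest p in Hezuo pigs were MASP1, CLU and F7. MASP1, which starts the lectin pathway, had 236, 237 and 244 CPM in controls and 166, 125 and 133 in the cold, without overlap (-0.76 ± 0.17, adjusted p = 0.0938). CLU, which like VTN binds the terminal complex, had 5583, 5583 and 3644 CPM and then 3267, 3032 and 2600, also without overlap (-0.73 ± 0.21, adjusted p = 0.146). F7 had 54.8, 57.6 and 57.6 and then 51.9, 32.04 and 42.0 CPM (-0.43 ± 0.16, adjusted p = 0.227).

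PROC in Hezuo pigs was 1396, 1433 and 1287 CPM in controls and 1188, 1016 and 1087 in the cold, a log2 fold change of -0.32 ± 0.14 that did not pass (adjusted p = 0.309). Every cold pig was below every control, and every cold Hezuo pig stood above every cold Bama pig. On the positive side stood CFP (71.4, 71.3 and 53.7 and then 74.8, 114 and 78.7 CPM, 0.45), MASP2, another lectin-pathway protease (89.5, 112 and 61.7 and then 95.3, 156 and 81.9 CPM, 0.34), and F3 (2.50, 2.90 and 2.68 and then 4.04, 2.59 and 3.27 CPM, 0.29). Their adjusted p ranged from 0.497 to 0.575.

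**Figure D3:**
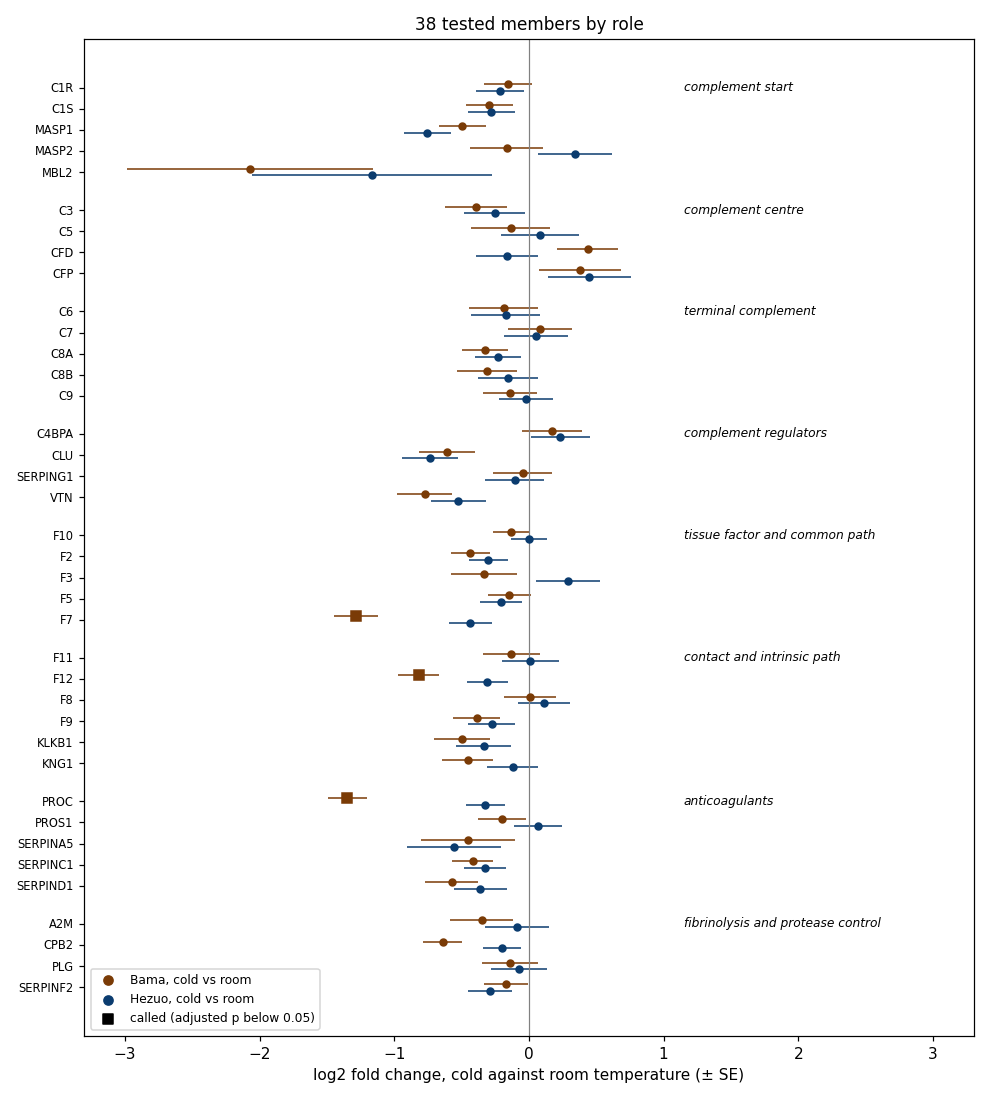
Log2 fold change, cold against room temperature, of the 38 tested members with its standard error, grouped by role, in Bama pigs (brown) and Hezuo pigs (blue). Squares mark called members: PROC (-1.35), F7 (-1.29) and F12 (-0.82) in Bama pigs and none in Hezuo pigs.

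Averaged over both breeds, 7 of the 38 members fell in the cold and 0 rose, where 1.94% of all genes were called lower, 1.95% higher and 3.89% in either direction. DESeq2 called these and F2, F9, KLKB1, SERPINC1 and SERPIND1, all lower, where it called 11% of all genes. PROC (-0.84 ± 0.10, adjusted p = 0.0043) and F7 (-0.86 ± 0.11, adjusted p = 0.00583) were joined by F12 (-0.56 ± 0.11, adjusted p = 0.0214), MASP1 (-0.63 ± 0.12, adjusted p = 0.0229), CLU (-0.67 ± 0.15, adjusted p = 0.0328), VTN (-0.65 ± 0.14, adjusted p = 0.0354) and CPB2 (-0.42 ± 0.10, adjusted p = 0.0431). In Bama pigs MASP1 was 133, 176 and 160 and then 94.0, 139 and 100 CPM, and CLU was 3745, 4505 and 3517 and then 2234, 2551 and 2923. Hezuo pigs had 6561, 5951 and 5841 and then 4767, 3435 and 4544 CPM of VTN, 404, 383 and 356 and then 303, 272 and 349 of F12, and 1585, 1289 and 1272 and then 1175, 1163 and 1270 of CPB2. In 11 of the 38 members every cold pig was below every control in both breeds, against 2.69% of all genes: CLU, VTN, F7, F2, F9, F12, KLKB1, PROC, SERPINC1, SERPIND1 and CPB2. Leaving out 1 library in turn left between 2 and 6 members called, PROC and F7 in all 12 fits. F12 passed in 10 of those fits, MASP1 in 6, CLU in 4, VTN in 2 and CPB2 in 0. With Y-linked RNA as a covariate 0 members were called (PROC -0.76 ± 0.13, adjusted p = 0.093).

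By role, most averaged fold changes on the clotting side were negative. All 5 tested genes of the anticoagulant list, which includes the protein C inhibitor SERPINA5, were negative (median -0.47), with 1 called. All 5 of the tissue factor and common path were also negative (median -0.18), with 1 called. Of these, F3 (-0.02) turned to 0.044 with the Y-linked covariate. Of the 6 contact and intrinsic factors 5 were negative (median -0.31), with 1 called, and all 4 genes of fibrinolysis and protease control were negative (median -0.22), with 1 called. On the complement side, 4 of 5 starting components (median -0.29, 1 called), 4 of 5 terminal components (median -0.18, 0 called) and 3 of 4 regulators (median -0.36, 2 called) were negative, against 2 of 4 in the centre and alternative pathway (median 0.05, 0 called). Since 51.3% of all genes were negative in this comparison with a median of -0.01, these medians describe the groups and carry no test of their own.

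Carboxylated factors did not move alike in Bama pigs. Beside PROC and F7, prothrombin had a log2 fold change of -0.44, factor IX -0.39, protein S (PROS1) -0.20 and factor X -0.13, none of them called. F7 and F10 are adjacent genes in RefSeq (assembly Sscrofa11.1), and F10 had 386, 424 and 356 CPM in controls and 351, 343 and 371 in the cold, overlapping where F7 did not. Neighbouring pairs elsewhere had similar values, with -0.16 and -0.29 for C1R and C1S and -0.31 and -0.33 for C8B and C8A.

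At room temperature edgeR called 0 of the 38 members between the breeds, where 1.08% of all genes were called, 0.672% higher and 0.406% lower in Hezuo pigs. Y-linked RNA was absent in all 3 Bama controls and present in all 3 Hezuo controls, so within these 6 libraries breed and Y-linked RNA cannot be told apart. DESeq2 called 5 members higher in Hezuo pigs (F10, F3, F9, MASP1 and SERPINC1), where it called 7.66% of all genes. By edgeR 7 had an unadjusted p below 0.05, 6 of them higher in Hezuo pigs, against 19.8% of all genes. Without overlap, 12 of the 38 members were higher and 1 was lower in Hezuo controls, against 1757 and 1462 of the 13532 genes tested. The median difference was 0.16 against -0.003 for all genes, and 13 values were negative, against 50.4% of all genes. F3 had 1.41, 1.41 and 1.51 CPM in Bama pigs and the Hezuo values above, without overlap (0.90 ± 0.24, adjusted p = 0.0858). MASP1 was also apart (0.61 ± 0.17, adjusted p = 0.0998), and F9 had 960, 1324 and 878 CPM in Bama pigs against 1665, 1463 and 1507 in Hezuo pigs (0.55 ± 0.18, adjusted p = 0.125). Lower in Hezuo pigs, without passing, were C7, a terminal component, with 293, 250 and 376 against 189, 254 and 189 CPM (-0.54, adjusted p = 0.237, and 0.22 with the covariate), CFP (-0.67, adjusted p = 0.259) and CFD (-0.30, adjusted p = 0.499).

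In the cold, 5 of the 38 members were higher in Hezuo than in Bama pigs and 0 were lower, where 1.8% of all genes were called higher, 0.961% lower and 2.76% in either direction. PROC was 1.23 ± 0.15 higher on the log2 scale (adjusted p = 0.00324), a 2.35-fold difference. F3 was 1.52 ± 0.25 higher (adjusted p = 0.0121), with 0.959, 1.26 and 1.21 CPM in cold Bama pigs, at the low end of what these libraries measure. CPB2 (0.69 ± 0.14, adjusted p = 0.0307), F7 (0.78 ± 0.16, adjusted p = 0.0307) and F12 (0.66 ± 0.15, adjusted p = 0.0422) followed, and none of the 5 overlapped between the breeds. Of all 38 members, 12 were higher in Hezuo pigs without overlap, against 12.3% of all genes, the same number of members as at room temperature. Y-linked RNA was present in 2 of the 3 cold Bama pigs and in all 3 cold Hezuo pigs. With it as a covariate PROC (1.32 ± 0.17, adjusted p = 0.01) and F3 (1.59 ± 0.29, adjusted p = 0.035) still passed, while CPB2, F7 and F12 did not.

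Across all 38, the median difference between the cold groups was 0.25 against -0.01 for all genes, and 7 values were negative, against 50.7% of all genes. DESeq2 called 10, of which CFD was lower and the other 9 higher in Hezuo pigs, where it called 9.07% of all genes. CFD was the member with the smallest p on the lower side, at 54.7, 45.3 and 54.5 CPM in Bama pigs against 30.8, 27.5 and 24.3 in Hezuo pigs, without overlap and without passing (-0.90 ± 0.23, adjusted p = 0.0567). C7 had 245, 447 and 282 against 198, 204 and 254 CPM (-0.57, adjusted p = 0.199), and CFP differed by -0.60 (adjusted p = 0.297). Leaving out 1 library in turn left 1 to 6 members called, PROC in all 12 fits, F3 in 11, CPB2 and F7 in 6 each and F12 in 2. Fitted on the 6 cold libraries alone, PROC passed (adjusted p = 0.0333), CFD was called lower (adjusted p = 0.042), and F3, CPB2, F7 and F12 did not pass (adjusted p from 0.0612 to 0.118). The hepatocyte markers were higher in cold Hezuo than in cold Bama pigs by a median of 0.61, with 0 of 10 called. Of the endothelial markers 2 of 8 were called higher (median -0.06) and of the stellate and mesenchymal markers 1 of 9 (median 0.13). The erythroid markers differed by a median of 2.40, the T and NK markers by -1.01 and the macrophage markers by -0.49, with 0 called in each. The part of these lists in the result was not tested.

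Whether the 2 breeds responded differently to cold was tested by the interaction of breed and temperature, and edgeR called 0 of the 38 members, where 0.00739% of all genes (1 gene) were called. An unadjusted p below 0.05 was found for 3 members, against 8.02% of all genes, a count near that share. All 3 had the smaller fall in Hezuo pigs: PROC (1.03 ± 0.20, adjusted p = 0.172), F7 (0.85 ± 0.23, adjusted p = 0.312) and F12 (0.51 ± 0.21, adjusted p = 0.583). DESeq2 called 1, PROC (adjusted p = 1.17e-06), where it called 1.03% of all genes. On the other side the smallest p belonged to CFD (-0.60, adjusted p = 0.709), MASP1 (-0.26, adjusted p = 0.872) and SERPINF2, the plasmin inhibitor, with 794, 646 and 620 and then 654, 558 and 617 CPM in Bama pigs and 893, 666 and 801 and then 580, 693 and 658 CPM in Hezuo pigs. The falls of PROC, F7 and F12 in Bama pigs alone were thus not shown by edgeR to differ from the Hezuo values.

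The wider pathway was followed in 62 further genes, of which 52 matched a row and 48 were tested. Between the cold groups 4 of the 48 were higher in Hezuo pigs and 0 were lower, where 1.8% of all genes were called higher and 0.961% lower. All 4 belonged to the 8 genes listed for the vitamin K cycle and the export of clotting factors. VKORC1, the reductase that regenerates vitamin K and the target of warfarin, had 118, 101 and 86.0 CPM in Bama controls and 57.7, 57.6 and 60.8 in the cold, and fell (-0.79 ± 0.14, adjusted p = 0.0323). That call held in 5 of the 12 fits without 1 library and was lost with Y-linked RNA as a covariate (-0.82 ± 0.22, adjusted p = 0.638). In Hezuo pigs it had 95.9, 125 and 104 and then 132, 116 and 117 CPM, so the cold groups lay far apart (1.05 ± 0.14, adjusted p = 0.00612). Its paralog VKORC1L1 had 63.2, 59.8 and 53.4 and then 53.2, 53.4 and 66.5 CPM in Bama pigs, and 79.5, 66.7 and 78.8 and then 113, 115 and 135 in Hezuo pigs (cold groups 1.07 ± 0.14, adjusted p = 0.00418).

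LMAN1 and MCFD2 form the cargo receptor that carries factors V and VIII out of the endoplasmic reticulum. LMAN1 had 158, 199 and 203 CPM in cold Bama pigs and 372, 344 and 392 in cold Hezuo pigs (0.98 ± 0.21, adjusted p = 0.0329), and MCFD2 had 109, 139 and 114 against 195, 176 and 247 CPM (0.77 ± 0.15, adjusted p = 0.0272). Their cargo F5 and F8 differed by 0.32 and -0.05 between the same groups, neither called. GGCX, the vitamin K-dependent carboxylase, had 107, 115 and 151 against 166, 193 and 218 CPM without passing (0.63 ± 0.18, adjusted p = 0.0761). With Y-linked RNA as a covariate LMAN1 did not pass (adjusted p = 0.0723), and VKORC1 did (adjusted p = 0.0232). Between the cold groups VKORC1 and VKORC1L1 passed in all 12 fits without 1 library, MCFD2 in 8 and LMAN1 in 5.

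Within Hezuo pigs all 8 genes of this group had positive log2 fold changes in the cold (median 0.40), and none was called. Of all 48 pathway genes, VKORC1L1 (0.69, adjusted p = 0.0686) and MCFD2 (0.69, adjusted p = 0.0869) had the smallest p. Next came CPN1, a kininase subunit listed under complement (0.50, adjusted p = 0.156), and LMAN1 (0.62, adjusted p = 0.198). This interaction was 0.96 for VKORC1 (adjusted p = 0.177), 1.12 for LMAN1 (adjusted p = 0.289), 0.72 for VKORC1L1 (adjusted p = 0.309) and 0.65 for MCFD2 (adjusted p = 0.435), so edgeR called 0 of 48, with 5 at an unadjusted p below 0.05 (8.02% of all genes) and 3 called by DESeq2 (1.03% of all genes).

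**Figure D4:**
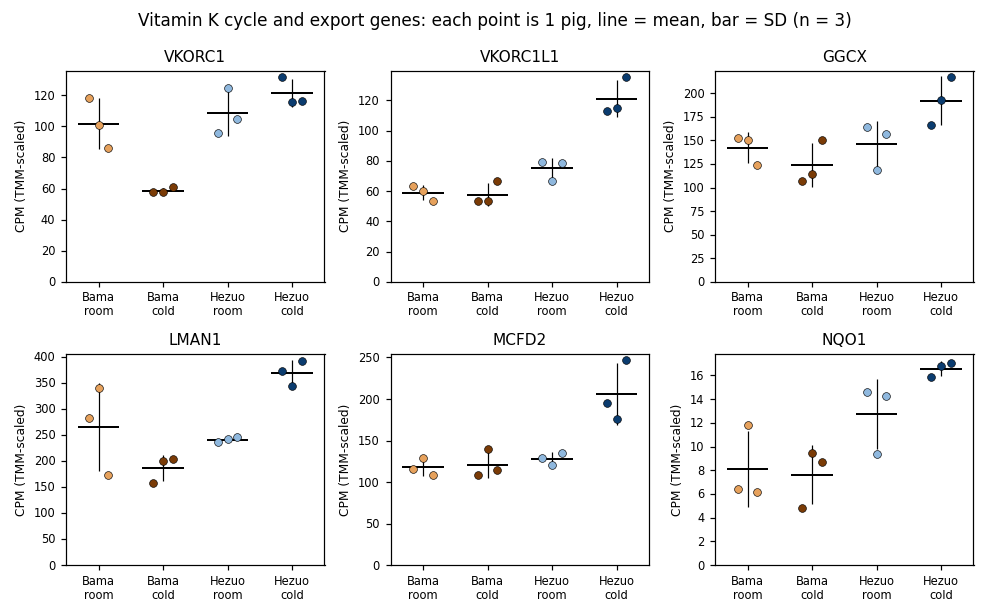
TMM-scaled CPM of 6 genes of the vitamin K cycle and of factor export, with 1 point per pig, the group mean as a line and the SD as a bar (n = 3). VKORC1 is lowest in the 3 cold Bama pigs (57.6 to 60.8), and LMAN1, MCFD2 and VKORC1L1 are highest in the 3 cold Hezuo pigs.

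Elsewhere in the pathway, 1 of 48 genes was called in the averaged cold response, where 3.89% of all genes were. VSIG4, a complement receptor of liver macrophages and itself one of the 9 macrophage markers, rose by 0.82 ± 0.16 (adjusted p = 0.0215), beside a median of 0.61 for those markers. Its call held in 11 of the 12 fits without 1 library, and in 16 of all 18 alternative fits. The fibrinogen genes FGA, FGB and FGG, whose products form the clot, had averaged log2 fold changes of 0.30, 0.23 and 0.33 and were called in no comparison. HRG, a plasma protein that binds heparin and plasminogen, had 5409, 3144 and 6378 CPM in Bama controls and 530, 1961 and 2867 in the cold (-1.48, adjusted p = 0.194). At room temperature 0 of 48 pathway genes were called between the breeds, with 10 (19.8% of all genes) at an unadjusted p below 0.05 and 3 (7.66% of all genes) called by DESeq2. These counts are near those shares. The plasminogen activator gene PLAU (-0.79, adjusted p = 0.0794) and ANXA2, a cell-surface anchor of plasminogen activation (-0.58, adjusted p = 0.115), had the smallest p. CFB, the factor B gene, averaged 4263, 3379, 5142 and 4213 CPM in Bama room, Bama cold, Hezuo room and Hezuo cold pigs, and CFI, which inactivates C3b, averaged 1067, 800, 683 and 698 CPM, with neither called by edgeR in any comparison. DESeq2 called CFI lower in Hezuo than in Bama controls (-0.65, adjusted p = 0.0163; -0.64 and 0.107 by edgeR) and called CFB in no comparison.

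The same genes also gave circular RNAs (circRNAs), closed loops in which the end of an exon is joined back to the start of an earlier one, counted by reads across that back-splice junction. Circles on the gene's own strand were listed for 26 of the 39 members, 252 in all with 8526 back-splice counts, or 1.36% of the 625980 in the table. Of these, 222 were made of annotated exons. Circles were unevenly spread over the members. Kininogen (KNG1), the source of bradykinin, had 25 circles and 7.52 back-splice counts per 1000 linear counts, C5 had 38 circles and 3.42 per 1000, and C8A had 6 circles and 3.16 per 1000. C3, with the most linear RNA of the members, had 24 circles and 0.0201 back-splice counts per 1000. No circle was listed for MASP1, MASP2, MBL2, CFD, CFP, CLU, F3, F7, F10, F2, F12, SERPIND1 or SERPINF2. C2, whose row held no linear count, had 3 circles with 36 counts.

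The most abundant circle came from KNG1 (chr13:124524484-124534067, plus strand, 477 bases, in the coordinates of the deposited table, whose genome build is not given in the sources used here). It ranked 18 among all 24177 circRNAs by counts. Its counts were 161, 165 and 225 in Bama controls, 69, 123 and 133 in the cold, 158, 167 and 135 in Hezuo controls and 127, 130 and 121 in the cold, and it was called in no comparison. Another KNG1 circle that ends at the same position (439 counts) and a C6 circle (276 counts) were not called either.

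Among the 96 member circles tested, 2 were called, both between breeds. At room temperature a C5 circle of 416 bases (chr1:261061492-261067829, minus strand) had 76, 106 and 115 counts in Bama pigs and 28, 43 and 30 in Hezuo pigs. It was lower in Hezuo pigs by edgeR on the back-splice counts (-1.16 ± 0.31, adjusted p = 0.0378), where 0.454% of 9032 circles were called, in the same 6 libraries in which breed and Y-linked RNA coincide, but not by DESeq2 (adjusted p = 0.154), and the call was lost without Bama control 2 or 3 or Hezuo control 1 or 3 (adjusted p from 0.123 to 0.341). In the cold a C8A circle of 1028 bases (chr6:155496886-155513761, minus strand) had 15, 24 and 16 counts in Bama pigs and 71, 34 and 53 in Hezuo pigs (1.62 ± 0.36, adjusted p = 0.0022), where 0.421% of circles were called. DESeq2 also called it (adjusted p = 0.0493), but it did not pass once Hezuo cold replicate 1 was left out (adjusted p = 0.137). The linear RNA of C5 and C8A differed by -0.35 and 0.23 in these comparisons, neither called.

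Cold against room temperature called 0 of the 96 member circles in Hezuo pigs, where 0.0886% of circles were called, and 0 in Bama pigs, where 0.155% were. An unadjusted p below 0.05 was found for 5 and 7 of them, against 5.79% and 6.53% of all circles, and DESeq2 called 0 in each breed. The C8A circle had 86, 35 and 26 counts in Bama controls. Per 1000000 gene counts these were 2.85, 1.27 and 0.894, against 0.748, 1.004 and 0.576 in cold Bama pigs, so the groups overlapped, and its log2 fold change of -1.05 ± 0.35 did not pass (adjusted p = 0.481). The C5 circle had 101, 91 and 45 counts in cold Bama pigs and 38, 52 and 56 in cold Hezuo pigs.

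**Figure D5:**
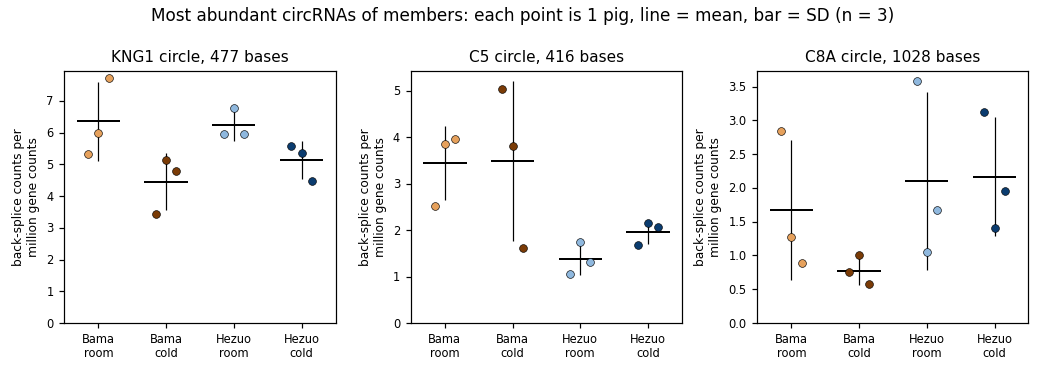
Back-splice counts per 1000000 gene counts of the 3 most abundant circRNAs of member genes, with 1 point per pig, the group mean as a line and the SD as a bar (n = 3). The C5 circle is lower in the Hezuo than in the Bama pigs at room temperature, and the C8A circle is lower in the 3 cold Bama pigs (0.576 to 1.004) than in the 3 cold Hezuo pigs (1.40 to 3.13).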

How the data were processed

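The authors deposited, per gene and library, estimated counts that are not normalized and FPKM values, and per circRNA and library back-splice counts and RPM values. The RPM values that the authors deposited were not used. Per the labels' protocols, RNA was extracted with TRIzol and the strand of the second synthesis was digested. The submitters' processing notes name fastp. Each of aligner, counter, circRNA caller and build was not given in the sources used here.

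Estimated counts (9.48% of nonzero values fractional) were rounded. edgeR 4.0.16 in R 4.3.3 fitted a robust quasi-likelihood model with 4 groups to all 12 libraries (TMM factors 0.874 to 1.20, filterByExpr with minimum count 10 and minimum total 15, 8 residual degrees of freedom), and 6 contrasts were tested. SE is the size of the log2 fold change over the root of F. circRNAs reaching 2 counts in 3 or more libraries and a total of 10 were tested likewise in 4 contrasts, with TMM over circRNAs. DESeq2 1.42.0, other scalings and filters, a replicate block, Y-linked RNA as a covariate (DDX3Y above 50 counts) and leaving out each library were alternatives. The scripts were tested on simulated counts. Pairs of replicates correlated at 0.970 to 0.983 on log2 CPM, with a chi-square per degree of freedom of 73.8 to 196, and none was merged.

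The members, the pathway and marker lists and the roles were chosen with earlier results of these data known. The most detail is given for each member called in a contrast. It also covers the 3 members with the smallest p per contrast and direction (mean of at least 1 CPM). Called pathway genes, some of up to 4 others with the smallest p per contrast, and the called and the 5 most abundant circRNAs follow. Not all of these have values for each pig. Of the marker lists, sinusoidal endothelium, cholangiocyte, T and NK, B and plasma, neutrophil, erythroid and platelet genes held 0 called members in the averaged cold response, hepatocyte 1 higher and 3 lower, macrophage 1 higher, and stellate and mesenchymal 4 lower.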

Additional observations from a re-analysis of the deposited data

Results flagged for a closer look

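Circles on the strand opposite to a member gene lie outside the comparisons above. There were 44 of them, with 215 back-splice counts over the 12 libraries and 4 to 39 in each. They were marked as a signal outside the main measurement, and since the table lists a circle only where it was counted, these are values with no test. Circles opposite C3 held 124 of these counts in 18 circles.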

How the results depend on the processing

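Of 1982 values of single genes and circles recomputed under other settings, 1794 kept their direction and side of the threshold. Another 131 lost a call, 33 gained one and 24 changed sign, none of the last past the threshold in either setting. Only values called in the main fit, a minority of the 1982, could lose a call. Set against 1982, the 131 therefore understate how often calls were lost. DESeq2 called more members in every gene comparison: 2 for cold in Hezuo pigs, 8 for cold in Bama pigs, 5 and 10 between breeds at room temperature and in the cold, 1 for the breed difference in the cold response and 12 in the averaged response. It called 0 member circles between breeds at room temperature, as did a minimum of 5 counts in 3 libraries. Fits of only the groups compared called 1 member for cold in Bama pigs and 2 between breeds in the cold (PROC higher and CFD lower in Hezuo pigs). With Y-linked RNA as a covariate the counts were 0 for cold in Bama pigs, 2 between breeds in the cold and 0 in the averaged response. Correlations of the deviations of same-numbered pigs ran from -0.247 to 0.196 over the 4 comparisons. Across temperatures in Bama pigs they were 0.194, 0.196 and 0.025, above those of differently numbered pigs (-0.209 to 0.012). Bama numbers 1 and 3 had 2 and 0 DDX3Y counts at room temperature and 2284 and 3769 in the cold, so they differ in Y-linked RNA. The numbers were treated as names only, and no crossed pairing was made. A replicate block gave 2 members for cold in Bama pigs, 2 between breeds in the cold and 4 in the averaged response.

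Leaving out each library in turn called 0 members for cold in Hezuo pigs, 2 to 3 in Bama pigs, 0 to 1 between breeds at room temperature, 1 to 6 in the cold, 0 for the breed difference and 2 to 6 in the averaged response, and 0 to 1 member circles between breeds at either temperature. Values that changed sign were all uncalled. With the covariate they were C7 (0.22) and F7 (0.17) between breeds at room temperature, SERPINF2 (0.010) in the breed difference and F3 (0.044) in the average. Scaled by gene counts they were the C6 circle in Hezuo cold (-0.11) and the KNG1 circle between breeds at room temperature (-0.028). Over the fits without 1 library, the log2 values that crossed 0 ran from -0.042 to 0.61 for CFP under cold in Bama pigs, from -0.47 to 0.063 for CFD and from -0.15 to 0.0080 for F7 between breeds at room temperature, and from -0.10 to 0.059 for F3 in the average. For circles they ran from -0.33 to 0.38 for C5 and -0.27 to 0.58 for C6 under cold in Bama pigs, from -0.20 to 0.78 for C8A and -0.27 to 0.63 for C6 under cold in Hezuo pigs, and, between breeds at room temperature, from -0.23 to 1.03 for C8A and from -0.051 to 0.17 for KNG1. The cause was not tested.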

Other observations

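A C4BPA circle of 6851 bases (chr9:67773869-67826688, plus strand, in the coordinates of the deposited table) had 30 and 33 counts in Hezuo cold replicates 2 and 3 and 0 or 1 in the other 10 libraries, Hezuo cold replicate 1 included, which had 0. It was singled out after its values were seen and fell short of the filter for testing. Circles of F11, the factor XI gene, held 43 back-splice counts in Bama controls, 15 in cold Bama pigs, 18 in Hezuo controls and 4 in cold Hezuo pigs.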
